A study of Gallus gallus with 4 samples.

Results

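Kinase genes are described here as they appear in c-Myc peak lists of chicken skeletal muscle cells. The gene set holds every gene of either peak list whose description contains the word kinase, leaving out descriptions with "inhibitor" or "mitochondri" and a group of named families (among them the cyclin-dependent, polo, aurora, checkpoint, Eph, S6 and carboxykinase genes, AKT1, CSNK1D and PGK1). It came to 155 of the 4834 genes named in either list. A kinase moves a phosphate group, usually from ATP, onto a protein, a lipid or a small molecule. Protein kinases relay signals from receptors to the nucleus and the cytoskeleton, lipid kinases mark membranes with phosphoinositides, and kinases of metabolites feed glycolysis and nucleotide synthesis. In muscle, the MAP kinase, PI3-kinase and AMP-activated kinase routes are known for their part in the growth, differentiation and energy supply of the cells. c-Myc is a transcription factor that binds DNA as a dimer with MAX and is known to act on growth and metabolism.

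The study asked where c-Myc binds in myoblasts, the dividing precursors of muscle fibres, and in myotubes, the fused cells that they form. Primary cells at passage 1 from skeletal muscle of chicken embryos were grown in RPMI-1640 with 15% fetal bovine serum as proliferating myoblasts, or moved to 2% horse serum to differentiate into myotubes. The labels name no genetic change, and do not say whether embryos were pooled. Each state had 1 library of chromatin immunoprecipitation with an antibody against c-Myc and 1 with IgG, 4 libraries in all. Myoblasts gave 11.5M c-Myc and 16.1M IgG tags, and myotubes 8.65M and 19.3M. There were no replicates, so the states were compared as single libraries, without a test. Intervals given with shares and tags are exact 95% intervals and cover counting error only. No RNA was measured, so the cell states could not be checked against marker genes.

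A peak belonged to the gene whose transcription start site (TSS) was nearest, as the authors annotated it, and a promoter peak had its centre within 1 kb of that TSS. Scores are those the authors deposited, in c-Myc tags per 10M sequenced. Tags are also given as counted over the peak in the c-Myc and the IgG library without scaling, and they are not always those behind the score and the caller's fold. Over the 643 peaks of kinase genes the median gap between the score and the tags per 10M was 0.0412, but it was over 2 at 35 peaks and 6.96 at the widest. The IgG library was the deeper of each pair.

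The label of the gene set holds for most of its members. By what their products are known to do, 127 of the 155 (81.9%) encode a kinase, counting members with an inactive or debated kinase domain, and the other 28 encode regulatory subunits, anchors, adaptors, substrates and proteins that only carry the word in their name. Among these are SKP1, a subunit of ubiquitin ligases, and PLAU, the protease urokinase. The rule also leaves out kinases whose description lacks the word. Of 63 such symbols looked up, 24 were named in the lists, among them EGFR, IGF1R and SRC, and of these WEE1, a cell cycle kinase, had a myoblast promoter peak (13.1 tags per 10M) and FGFR2, a fibroblast growth factor receptor, a myotube one (13.9). In myoblasts this is 1 of 24 (4.17%, 0.105 to 21.1%), where 22.0% of all genes of the lists had a promoter peak. The interval of these 24 genes thus ends just below the general share in myoblasts. The named families that the rule leaves out are not among the genes counted here. In myotubes the share was also 1 of 24 (4.17%, 0.105 to 21.1%), and the interval holds the 1.37% of all genes. Within 5 kb of the TSS 7 of the 24 had a myoblast peak, where 40.6% of all genes had one, and no interval was computed there. The interval within 1 kb left out the general share, but it rests on 1 of 24 genes and no test was run. With so few genes it is not read as a depletion here.

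c-Myc peaks lay at the promoters of 42 of the 155 genes in myoblasts (27.1%, 20.3 to 34.8%), where 22.0% of all genes of the lists had one. The interval holds the general share, so promoter peaks were not shown to be more frequent at kinase genes than at other genes. Counting only peaks with a fold over IgG of at least 8, there were 26 genes (16.8%, 11.3 to 23.6%), against 10.2% of all genes, which lies below the interval. That fold is the caller's. With the ratio of the tags counted over each peak, scaled to depth, there were 22 genes (14.2%, 9.11 to 20.7%), and the interval holds the 10.2% of all genes. IRAK1BP1, a binding partner of an interleukin-1 receptor kinase, STK38L, a kinase of the NDR family linked to the Hippo pathway, and AK6, an adenylate kinase isoenzyme, had the highest promoter scores. In myotubes none of the 155 had a promoter peak, against 1.37% of all genes. A count of 0 of 155 allows a share of up to 1.94% by the limit of 3 counts and 2.35% by the exact interval, so the myotube list is too short to set the kinase genes apart. Among the 127 genes that encode a kinase, 31 had a myoblast promoter peak (24.4%, 17.2 to 32.8%).

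Within 500 bp of the TSS, 29 members had a myoblast peak (18.7%), against 16.8% of all genes. Within 5 kb, 68 members had one in myoblasts (43.9%, against 40.6%) and 3 in myotubes (1.94%, against 2.98%). Nearly every member, 153 of 155, had some myoblast peak (98.6% of all genes), as the background is made of genes to which a peak was assigned. Some myotube peak was assigned to 26 members, or 16.8%, against 18.3% of all genes. At each of these distances the share of kinase genes was close to that of all genes.

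Members lay close to the outer edge of the promoter window on both sides. Just inside were PRKAG2 at -931 bp (16.6 tags per 10M) and MARCKS at -933 bp (12.6). Just outside were PHKG1 at 1035 bp (11.8) and PHKB at -1132 bp (12.2), both subunits of phosphorylase kinase, which starts glycogen breakdown.

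**Figure D1:**
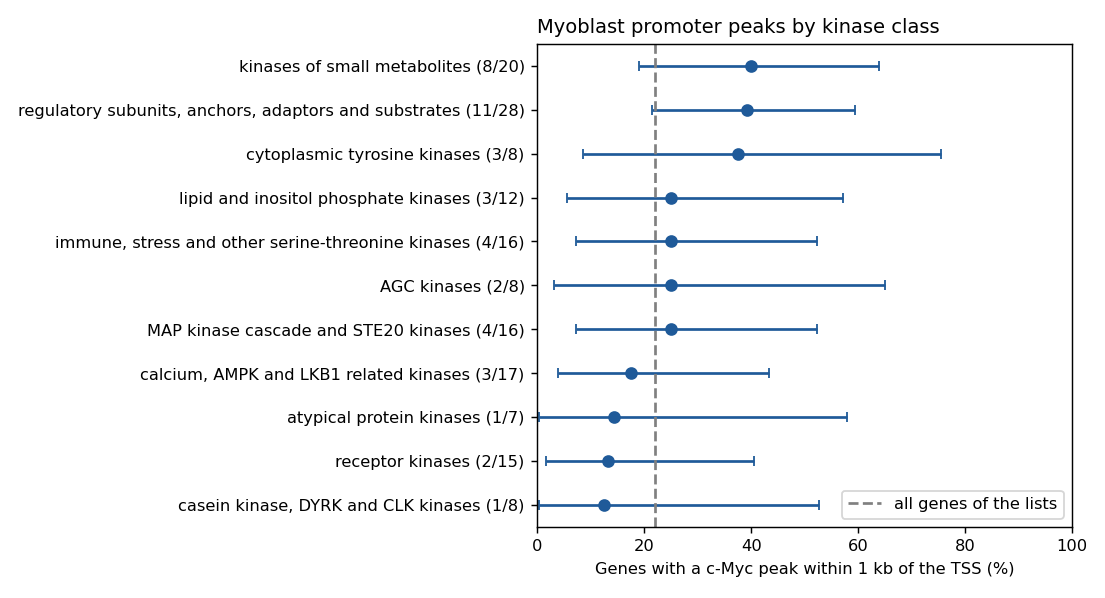
Share of genes with a myoblast c-Myc peak within 1 kb of the TSS (x axis, percent) in 11 classes of the kinase gene set (y axis, with genes that had such a peak of all genes in the class). Points are shares, bars are exact 95% intervals, and the dashed line is the 22.0% of all 4834 genes. The intervals are wide, and each of the 11 holds the dashed line.

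By class, the share of genes with a myoblast promoter peak ran from 12.5% to 40.0%. Kinases of small metabolites had it at 8 of 20 genes (40.0%, 19.1 to 63.9%) and the regulatory subunits, anchors, adaptors and substrates at 11 of 28 (39.3%, 21.5 to 59.4%). Receptor kinases were near the other end, with 2 of 15 (13.3%, 1.66 to 40.5%). The intervals of all 11 classes hold the 22.0% of all genes, so that no class was set apart at this number of genes.

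Of the receptors, which pass a signal from outside the cell, TGFBR1 and NTRK2 had a promoter peak in myoblasts. TGFBR1 is the type I receptor of TGF-beta, a pathway known to hold back muscle differentiation. Its peak lay 119 bp downstream of the TSS, on chromosome 2 from 56031965 to 56032165 of galGal4, with 20.5 c-Myc tags against 6 IgG tags (17.9 per 10M). NTRK2, a neurotrophin receptor, had its peak at -923 bp, with 15 and 3 tags. The other 13 receptor genes had their closest myoblast peak farther out. It lay at -1633 bp for MST1R, the receptor of macrophage stimulating protein, at 2.37 kb for FLT1 and 44.1 kb for KDR, both receptors of vascular endothelial growth factor, and at 117 kb for TYRO3.

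Among the 8 cytoplasmic tyrosine kinases, PTK2, BTK and JAK1 had promoter peaks. PTK2 encodes focal adhesion kinase, which acts where integrins hold the matrix. Its peak at -493 bp held 17.5 c-Myc and 3 IgG tags. BTK, known from B-cell signalling, had 16 and 2.5 tags at -742 bp. JAK1, a kinase of cytokine receptors, had the lowest promoter score of the whole gene set, 10.9 per 10M, with 13 and 1.5 tags at -282 bp. Of the others, PEAK1 had its closest myoblast peak at -1579 bp (16.1 per 10M) and CSK at -2221 bp (12.2). SYK, TEC and JAK2 had theirs between 14.3 and 38.3 kb away. Within 5 kb of the TSS 5 of the 8 genes had a myoblast peak (62.5%), against 40.6% of all genes, and no interval was computed there. It was the highest share of the 11 classes at that distance. The lowest was 12.5%, in the casein kinase, DYRK and CLK class. With 8 genes it is not read as an excess.

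In the MAP kinase cascade and the STE20 family, 4 of 16 genes had a promoter peak. STK3 is a core kinase of the Hippo pathway, which limits growth. Its peak was centred 61 bp upstream of the TSS on chromosome 2 from 127569350 to 127569550, with 19 c-Myc and 2 IgG tags (16.6 per 10M). STK24 had 18 tags at -19 bp, but also 9 IgG tags, the most of any promoter peak of the set. MAPK9, a JNK stress kinase, had 14 and 2 tags at -711 bp, and MAP2K5, the activator of ERK5, 13 and 4 at 240 bp. Both lay near the lower end of the scores. MAPK11, a p38 kinase, had no promoter peak, with the closest at 7.08 kb.

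The AGC kinases, a family named after protein kinases A, G and C, had 2 of 8. STK38L had 2 promoter peaks, at 138 bp with 26 c-Myc and 8 IgG tags and at -341 bp with 17 and 2. They lay on chromosome 1 from 68225859 to 68226059 and from 68225380 to 68225580. SGK1, a kinase induced by serum and glucocorticoids, had 16.5 c-Myc tags and 0 IgG tags at -683 bp (15.3 per 10M), and a further peak at -1248 bp (12.2). PDPK1, the kinase that activates AKT and SGK, had its closest peak 6.13 kb from the TSS.

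Calcium, AMPK and LKB1 related kinases had 3 of 17. SIK1, a salt-inducible kinase known from myogenic gene control in mouse, had 15.5 c-Myc and 2 IgG tags at 556 bp (13.5 per 10M). PRKAA2, the catalytic alpha 2 subunit of the energy sensor AMPK, had 15 and 1 at -845 bp, and BRSK2, a kinase of neuronal polarity, 12 and 4.5 at -757 bp. STK11, which encodes LKB1, the activator of AMPK, had its closest peak at 10.5 kb. The gamma 2 subunit gene of AMPK, PRKAG2, had 19 and 4.5 tags at -931 bp, like PRKAA2 toward the outer edge of the window. The other AMPK subunit genes of the set had no promoter peak. Their closest myoblast peaks lay at 8.60 kb for PRKAG3, 10.2 kb for PRKAB2 and 18.6 kb for PRKAB1.

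CSNK2A1, the catalytic alpha subunit of casein kinase 2, was the only 1 of 8 genes of the casein kinase, DYRK and CLK class with a promoter peak, at 211 bp with 15.5 c-Myc and 4.5 IgG tags. CSNK1A1, a casein kinase that marks beta-catenin for decay, had 12 myoblast peaks but the closest lay 11.7 kb from its TSS. DYRK1A had 10, of which the closest lay 6.30 kb away.

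The class of immune, stress and other serine-threonine kinases had 4 of 16. CHUK encodes the IKK-alpha kinase of the NF-kappa-B pathway, and its peak at 193 bp held 17.5 c-Myc and 6 IgG tags (17 per 10M). IRAK2, a kinase of interleukin-1 and Toll-like receptors, had 19 and 2 at 120 bp. LRRK2, a large kinase known from Parkinson disease in humans, had 17 and 4.5 at 392 bp. EIF2AK1, a heme-regulated kinase that halts translation, had 13.5 and 3 at -99 bp and a further peak at -1473 bp (10.5 per 10M). Among the atypical kinases PRKDC, the DNA-dependent kinase of double-strand break repair, was the 1 of 7 with a promoter peak, at -145 bp with 14.5 and 1.5 tags. The pyruvate dehydrogenase kinases PDK1, PDK3 and PDK4, which slow the entry of pyruvate into the citric acid cycle, had their closest peaks at 21.1, 41.5 and 41.1 kb.

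Of 12 lipid and inositol phosphate kinases, 3 had a promoter peak. ITPK1 and IP6K2 phosphorylate soluble inositol phosphates. ITPK1 had 18.5 c-Myc and 2.5 IgG tags at 146 bp on chromosome 5 from 44301059 to 44301259 (16.1 per 10M). Leaving out named repeats, it had 5 more peaks in its own introns, the most of any member in that count. IP6K2 had 15 and 2.5 at -128 bp. PI4K2B, which makes phosphatidylinositol 4-phosphate, had 15 and 3.5 tags with the peak centred 1 bp from the TSS. None of the 4 catalytic genes of PI3-kinase had a promoter peak. The closest lay 3.74 kb from the TSS for PIK3CB (13.5 per 10M), 4.74 kb for PIK3CG (12.2), 7.30 kb for PIK3CD (13.5) and 7.47 kb for PIK3CA (16.1).

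The kinases of small metabolites with a promoter peak were AK6, PKM2, DCK, NME5, RFK, UCK2, CMPK1 and GALK2. AK6 led with 23 c-Myc and 2.5 IgG tags at 83 bp, on the Z chromosome from 63988600 to 63988800 (20 per 10M). PKM2 encodes pyruvate kinase, the last enzyme of glycolysis, and had 18 and 5.5 tags 24 bp from the TSS. DCK, CMPK1 and UCK2, which phosphorylate nucleosides or nucleotides of pyrimidine salvage, had 16.5, 14 and 13.5 c-Myc tags, against 5, 3 and 0 IgG tags. NME5, named as a nucleoside diphosphate kinase, had 16 and 3.5, RFK, which makes flavin mononucleotide, 14 and 4.5, and GALK2, a galactokinase, 13 and 3.5. Those without a promoter peak included PFKP, a phosphofructokinase of glycolysis (closest at 24.9 kb), CKB, the brain creatine kinase (3.32 kb), ADK, the adenosine kinase (7.49 kb), and TK1, the thymidine kinase of dividing cells (15.9 kb).

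The 11 genes of the remaining class with a promoter peak were IRAK1BP1, SH3KBP1, MAPKAP1, PRKAG2, CINP, AKAP17A, MARCKS, NUCKS1, SKP1, PRKAR1A and STK11IP. IRAK1BP1 held 26 c-Myc and 4 IgG tags at -99 bp, on chromosome 3 from 79051381 to 79051581 (22.7 per 10M), and 23 promoter peaks of the myoblast list, its own included, had a score as high. SH3KBP1, an endocytic adaptor, had 20.5 and 5.5 at 421 bp, and MAPKAP1, which encodes SIN1, a subunit of mTOR complex 2, had 20 and 1 at 878 bp. CINP, a partner of a cyclin-dependent kinase, had 18 and 4 at -177 bp, and AKAP17A, an anchor of protein kinase A, 15.5 and 1 at 253 bp. SKP1 had 2 promoter peaks, at 3 bp (12.2 per 10M) and -716 bp (11.3). Along with STK38L it was 1 of 2 members with 2 such peaks, and 43 genes of the whole list had 2 or more.

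**Figure D2:**
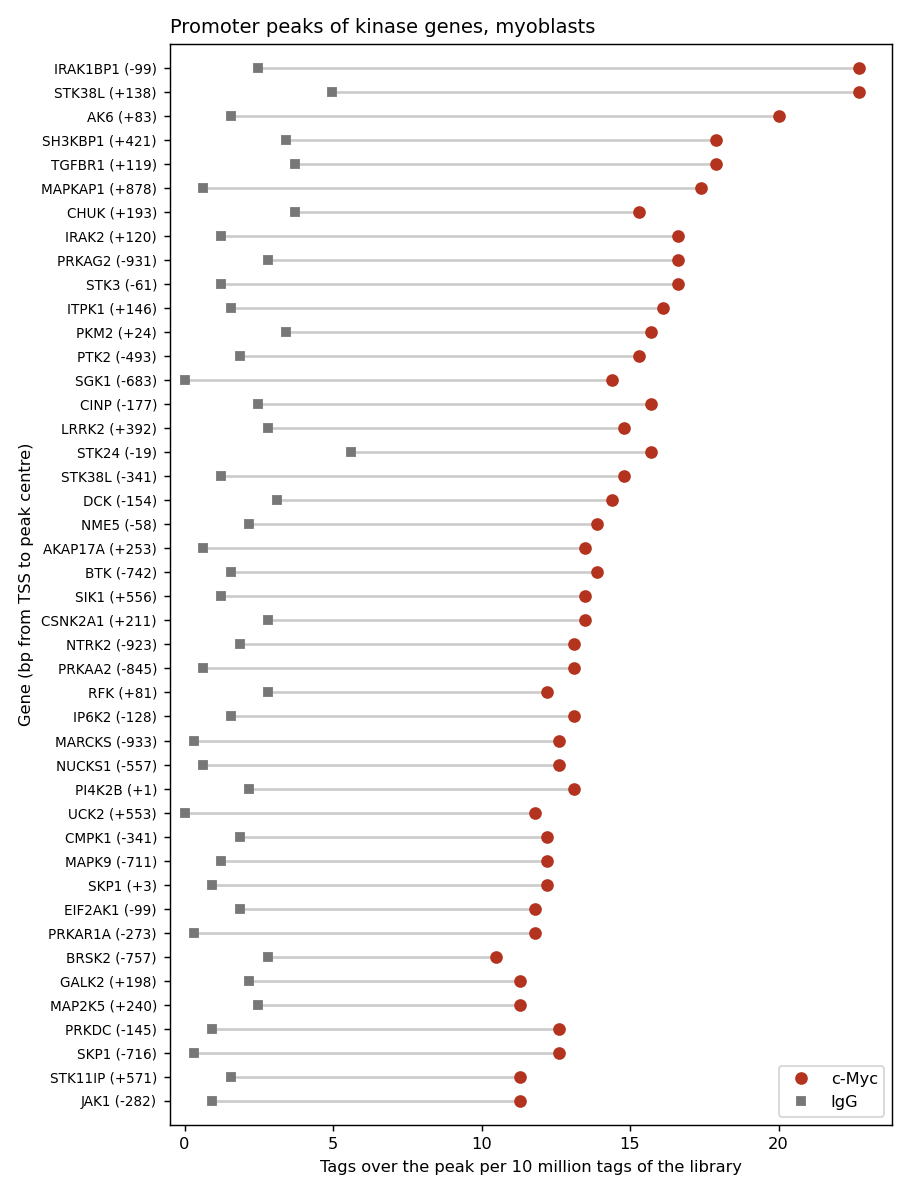
Tags over each of the 44 myoblast promoter peaks of kinase genes (x axis, scaled to 10M library tags), c-Myc as circles and IgG as squares. Rows are peaks in the order of the authors' score, with the distance of the peak centre from the TSS in bp beside the gene. IRAK1BP1, STK38L and AK6 stand highest, and no IgG value reaches the c-Myc value of its peak.

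Over these 44 promoter peaks the c-Myc library held 12 to 26 tags and the IgG library 0 to 9 tags. The caller had required an excess over IgG, so the gap between the libraries is a property of the list and not a result. The median promoter score was 13.5 for kinase genes and 13.5 for all genes, and the median over all peaks was 12.6 for both. Of the 44 peaks 24 lay upstream of the TSS (54.5%, against 57.8% of all promoter peaks) and 22 within 250 bp of it (50%, against 51.2%). In score and in these measures of position the values were close to those of all promoter peaks. Of the 24 upstream peaks 10 lay at -1000 to -500 bp, against 141 of the 639 upstream promoter peaks of all genes. No interval was computed there. A peak of 14.5 tags, the median over all peaks of kinase genes, is bounded by 8.02 and 24.1 tags by counting error alone, which spans nearly all of these promoter peaks, so the order of genes by score is coarse.

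**Figure D3:**
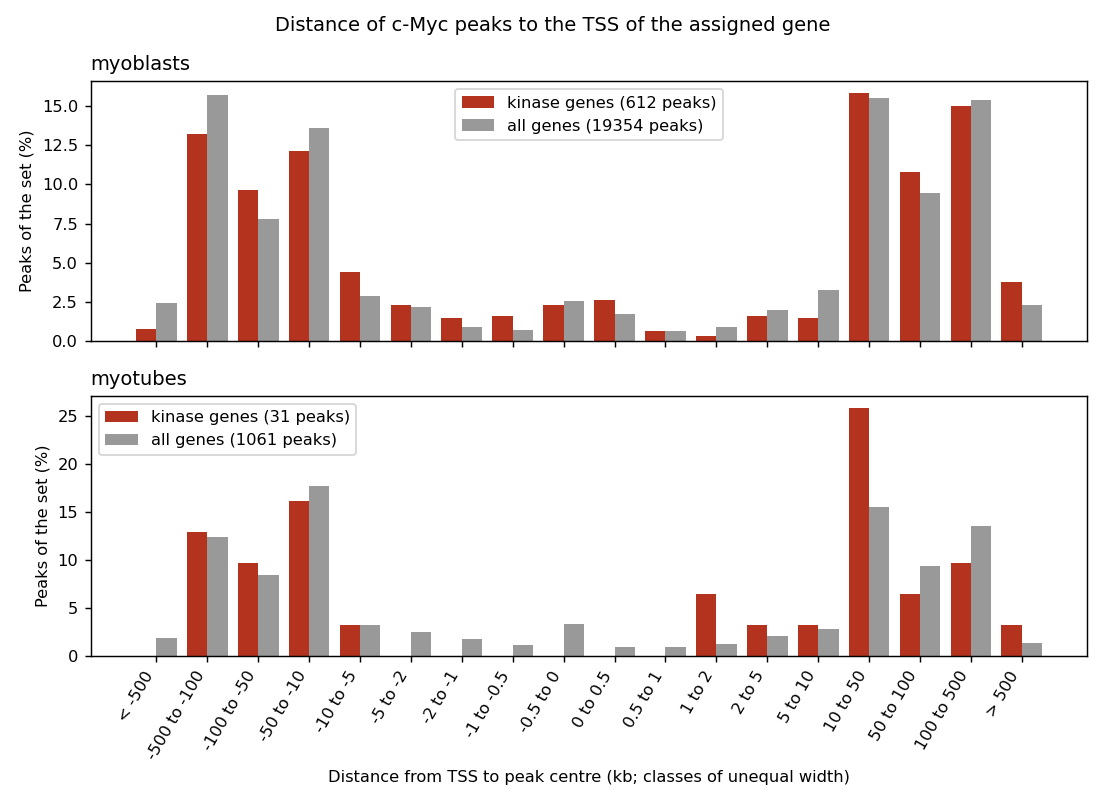
Distance from the TSS of the assigned gene to the peak centre (x axis, kb, in classes of unequal width) and share of peaks in each class (y axis, percent), for kinase genes and for all genes, in myoblasts (upper panel) and myotubes (lower panel). In myoblasts the bars of kinase genes broadly follow those of all genes, with departures both ways in classes of few peaks. Examples are -1000 to -500 bp (10 peaks, 1.63% against 0.729%) and 5000 to 10000 bp (9 peaks, 1.47% against 3.26%). In myotubes no kinase gene has a bar between -1 and 1 kb.

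Most peaks of kinase genes lay far from promoters. The set had 612 of the 19354 myoblast peaks, of which 44 were promoter peaks (7.19%, 5.27 to 9.53%, against 5.71% of all peaks). The median distance to the TSS was 55.5 kb, against 57 kb for all peaks, and 201 peaks (32.8%) lay more than 100 kb away, against 35.8%. Peaks annotated as CpG islands made up 6.05%, against 5.70%, and named repeats 6.21% in both. The median number of myoblast peaks was 3 per gene with any, for kinase genes as for all genes.

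The place of the peaks in genes was counted without a test. Of the 612 peaks 116 lay in introns (19.0%, 15.9 to 22.3%), against 13.6% of all myoblast peaks, and 428 were intergenic (69.9%, 66.1 to 73.5%), against 77.1%. A narrower count took introns of the assigned gene's own transcript and left out peaks annotated as a named repeat. It held 93 peaks in 57 genes (15.2%, 12.4 to 18.3%), against 9.82% of all peaks. The intron length of the genes was not measured, and its part in this difference was not tested. Peaks of a gene also share their locus, so the intervals, which treat peaks as independent, are too narrow. After ITPK1, the members with the most peaks in this narrower count were DCLK1, a kinase of microtubules in neurons, and NRK, with 4 each. DCLK1 had a further intron peak in a named repeat at 87.2 kb (11.3 per 10M), which the count leaves out. BRSK2, CSNK1G1, HIPK3 and NTRK3 had 3 each in it. The scores of these peaks were ordinary, from 10 to 16.1 per 10M.

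The members with the most myoblast peaks, except CSNK1A1, had most of them far from the gene. STK17B, a kinase linked to apoptosis, was the nearest gene of 29 peaks between 8.56 and 896 kb from its TSS, with a median of 349 kb, and 6 genes of the list had as many, its own count included. MARCKS, a substrate of protein kinase C, had 16 with a median distance of 404 kb. PDK3 had 15 with 304 kb, and VRK1, a chromatin kinase, 13 with 340 kb. CSNK1A1 had 12 with 53.3 kb, near the 55.5 kb of all myoblast peaks of kinase genes. At such distances the assigned gene is the nearest on the map, and nothing in the lists ties the peak to it.

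Some of the highest myoblast scores of the set lay outside promoters. A peak 7.71 kb upstream of MAP3K14, which encodes the NF-kappa-B inducing kinase, scored 104.6 per 10M with 128 c-Myc and 28 IgG tags. It is annotated as a simple repeat, (TG)n. The IgG tags there were also the highest of those named here, and whether reads of the repeat were placed correctly was not tested. The next peaks were both at 24.8 per 10M, 43.8 kb from ITPKA in a (TC)n repeat and 21.7 kb from CINP in a CpG island. A CpG island 4.28 kb upstream of PIK3AP1, a PI3-kinase adaptor of B cells, had 26.5 c-Myc and 2.5 IgG tags (23.1 per 10M). CpG islands near PDK3 (304 kb, 21.4) and PBK, a mitotic kinase (22.1 kb, 20.9), scored below the promoter peaks of IRAK1BP1 and STK38L.

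In myotubes the set had 31 of the 1061 peaks, at 26 genes, with scores from 11.6 to 18.5 and a median of 12.7 per 10M, against 13.3 for all myotube peaks. A share of 0 of 31 within 1 kb of a TSS stands against 6.31% of all myotube peaks, and the interval of that share, 0 to 11.2%, holds the general value. The count of 0 depends on the 1 kb limit. The authors' own promoter class, which reaches farther, holds 2 of the 31 (6.45%, 0.791 to 21.4%), against 9.33% of all myotube peaks. A gene without a peak in the shorter list may still be bound. The lowest caller score in myotubes was 11, which corresponds to 18.9 tags at the depth and peak width of the myoblast list if tags spread evenly over a peak, and to 14.6 tags by depth alone. By tags counted over the peak, 9 of the 44 myoblast promoter peaks of kinase genes held the first number (20.5%, against 21.3% of all). The second was held by 28 (63.6%, against 62.2%). These tags are not the caller score from which the numbers were scaled. The called myotube peak of NME4 held 10 of them, below the lowest caller score, so both counts are rough.

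MAP2K1 had the most myotube peaks of the set, 3. It encodes MEK1, a kinase of the middle tier of the MAP kinase cascade. Its 3 myotube peaks lay downstream of the TSS on chromosome 10. The closest, from 17966439 to 17966593, was centred at 1.63 kb with 11 c-Myc and 4 IgG tags (13.3 per 10M), and the authors' own promoter class, which reaches farther than 1 kb, holds it. The second, at 7.41 kb in intron 1, had 16.5 and 3 tags and the highest myotube score of the set (18.5), and the third, at 14.2 kb in the same intron, had 13 and 6.5 tags (14.4). No myoblast peak was assigned to MAP2K1. The nearest one lay 4.34 kb from the closest myotube peak, at the promoter of TIPIN, a gene of the replication fork, with 15.7 per 10M. That peak was also upstream of the MAP2K1 TSS and less than 5 kb from it, but it was assigned to TIPIN alone. The lack of a myoblast peak for MAP2K1 thus rests on the assignment to the nearest gene. Of the 155 members 1 had 3 or more myotube peaks (0.645%), close to the 27 of all 4834 genes (0.559%). The number of its peaks thus does not set MAP2K1 or the kinase genes apart. Of the 27 genes 2, MAP2K1 included, had no myoblast peak assigned.

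Besides MAP2K1, PRKCI and MST1R had a myotube peak within 5 kb of the TSS. PRKCI encodes an atypical protein kinase C of cell polarity. Its myotube peak was at 1.16 kb with 13 c-Myc and 2 IgG tags, and its only myoblast peak at -3593 bp with 15 and 5. For MST1R the myotube peak lay in exon 3 of 20, at 2.56 kb with 12 and 4 tags, and the myoblast peak at -1633 bp with 15 and 3.5. In both genes the peaks of the states were on opposite sides of the TSS and more than 4 kb apart.

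**Figure D4:**
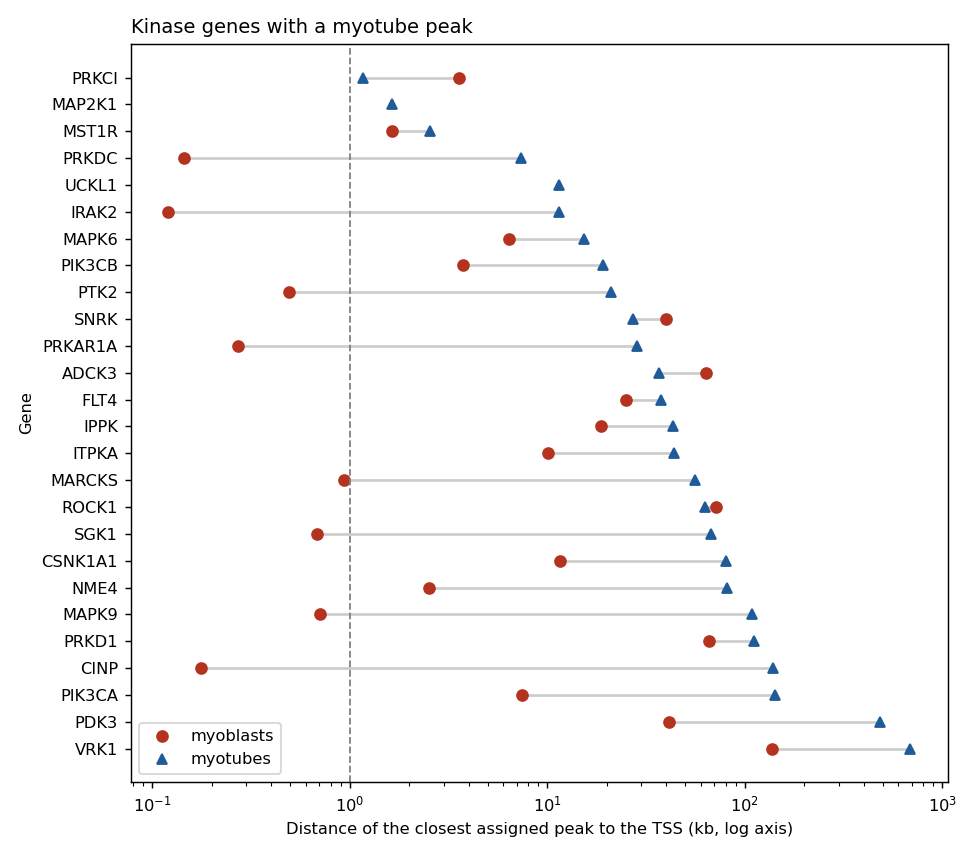
Distance from the TSS to the closest assigned peak (x axis, kb, log axis) in myoblasts (circles) and myotubes (triangles) for the 26 kinase genes with a myotube peak (y axis), with the 1 kb window as a dashed line. MAP2K1 and UCKL1 have no circle because no myoblast peak was assigned to them, and no triangle lies within 1 kb.

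Peaks were assigned in both states to 24 kinase genes, or 15.5% of the set, which is 15.7% of the 153 members in the myoblast list and 92.3% of the 26 in the myotube list. For all genes, 17.0% had peaks in both states, 17.2% of the myoblast list and 92.6% of the myotube list. Of these 24 genes, IRAK2, PRKDC, PTK2, PRKAR1A, MARCKS, SGK1, MAPK9 and CINP had a myoblast promoter peak. Their closest myotube peak lay between 7.37 kb (PRKDC) and 140 kb (CINP) from the TSS. None of the 155 members had a myotube promoter peak, against 1.37% of all genes, so the farther myotube peak was set beforehand and is not a result. The like share among all genes with peaks in both states is not given here. PRKAR1A encodes a regulatory subunit of protein kinase A. UCKL1, a uridine-cytidine kinase, was in the myotube list alone, with a peak at -11.5 kb (12.7 per 10M).

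The same site was called in both states at 2 of the 31 myotube peaks of kinase genes (6.45%, 0.791 to 21.4%), against 6.97% of all myotube peaks. Both lay in (TC)n simple repeats. The site 67.5 kb upstream of SGK1 had 23.5 c-Myc and 8.5 IgG tags in myoblasts and 11 and 4 in myotubes. The site 43.7 kb upstream of ITPKA, a kinase of inositol trisphosphate, had 29 and 8 in myoblasts and 13 and 7 in myotubes. The ITPKA site began at 23916024 on chromosome 5 in myoblasts and at 23916059 in myotubes, and had more IgG tags than the typical peak of kinase genes in either list (median 2.50 and 3.50). Outside repeats 0 of 27 myotube peaks of kinase genes overlapped a myoblast peak (0 to 12.8%), an interval that holds the 4.02% of all such peaks, and those of IPPK and PRKD1 lay 674 and 580 bp from a myoblast peak of the same gene, centre to centre.

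Genes that act beside these kinases were looked at in 3 lists of pathway partners. Of 61 non-kinase genes of the MAP kinase pathway 26 were named in the lists, and 7 had a myoblast promoter peak (26.9%, 11.6 to 47.8%, against 22.0% of all genes). They were SPRY2, an inhibitor of receptor signalling (16.6 per 10M), the adaptor SHC1 (14.4), RASGRP3 (13.5), the phosphatases DUSP4 (12.2) and PTPN11 (11.8), CDC42 (10.5) and NRAS (9.15). TAB1, an activator of a MAP kinase kinase kinase, is in this list and in the gene set. Of 64 non-kinase genes of the phosphoinositide pathway 10 were named in the lists, and 4 had a myoblast promoter peak (40.0%, 12.2 to 73.8%). All of them were myotubularins, MTMR14 (18.7), MTMR8 (11.8), MTMR2 (11.3) and MTMR9 (11.3). Of 21 named protein phosphatases 6 had one (28.6%, 11.3 to 52.2%), led by PPP2CB, a catalytic subunit of phosphatase 2A (18.7), and PTPRA (17.9). In myotubes PPP3R1, the regulatory subunit of calcineurin, was the only member of the 3 lists with a promoter peak (13.9). That is 1 of the 21 phosphatases (4.76%, 0.120 to 23.8%), and the interval holds the 1.37% of all genes. The other lists had 0 of 26 and 0 of 10. The intervals of all 3 lists in myoblasts hold the general share.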

How the data were processed

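The deposited data are 2 peak lists, 1 per cell state, each called by the authors from a c-Myc against an IgG library and annotated with HOMER on galGal4, per the file headers. CASAVA 1.8.2, Trimmomatic 0.30, FastQC 0.10.1, Bowtie2 2.1.0 and HOMER 4.6 are named per the submitters' processing notes, while options and order were not given in the sources used here. The deposited score is c-Myc tags per 10M tags, with peaks 200 bp wide in myoblasts and 154 bp in myotubes. The deposited signal columns are tags per peak, unscaled in multiples of 0.5, with IgG also scaled to c-Myc. The deposited ratios are folds over IgG and over the local region, both 4 or above, and the deposited p-value against IgG is at most 8.09e-05.

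Gene identity was the gene ID of the lists, and all 155 members matched the RefSeq table of GRCg7b, used for names only. Counts, shares and medians were computed with Python 3.11.15, pandas 2.3.3 and scipy 1.17.1 (exact Clopper-Pearson intervals and exact Poisson bounds for tags), and figures with matplotlib 3.10.9. No test was run, since no group has a replicate. The counting was tested on simulated data.

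The members, lists and classes were chosen with earlier results of these data known, and the classes were set from gene names and descriptions. Named were the 20 members with the highest myoblast promoter scores, up to 4 of each class, members with a myotube promoter peak or a site within 5 kb called in both states (none), the 5 with the most peaks, the highest peak of each list and the members beside the window's edge. Further genes were named after their values were seen. The genome sequence of the authors' build and promoter sequences were not used here, so E-box motifs were not counted.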

Additional observations from a re-analysis of the deposited data

How the results depend on the processing

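The number of kinase genes with a myoblast promoter peak, 42, was 29 with a 500 bp window, 68 with a 5 kb window, 26 of 155 with folds over IgG of at least 8 (16.8%, 11.3 to 23.6%, against 10.2% of all genes), 27 in the upper 50% of the list by score (17.4%, against 14.1%) and 5 among as many top peaks as the myotube list holds (3.23%, against 3.10%). Among the 127 members that encode a kinase 31 had such a peak (24.4%, 17.2 to 32.8%, against 22.0%). The share was above that of all genes in each of these settings, but the interval left out the general share at the stricter fold alone. The settings draw on overlapping peaks of 1 list, so their common direction is not repeated support. With that fold taken from tags counted over each peak, an alternative chosen after seeing the data, the count was 22 (14.2%, 9.11 to 20.7%, against 10.2%). The promoter share of kinase peaks in myoblasts, 7.19%, was 9.96% in the upper 50% by score (all peaks 7.31%) and 8.39% at the stricter fold (5.60 to 12.0%, all peaks 5.26%), and the median score was 13.5 over promoter peaks alone. In myotubes 3 kinase genes had a peak within 5 kb, and the count stayed at 0 at 500 bp, at the stricter fold and in the upper 50%. The authors' own promoter class held 55 of the 612 myoblast peaks of kinase genes (8.99%, against 7.49% of all). In myotubes it held 2 of 31 (6.45%, against 9.33%). Genes with peaks in both states numbered 24, with 11 at the stricter fold (7.10%, against 9.16%) and 2 within 5 kb (1.29%, against 1.16%). Sites called in both states were 4 of 31 with centres within 1000 bp (12.9%, against 13.2% of all) and 0 of 27 without repeats (against 4.02%). Promoter peaks whose tags over the peak reached the scaled lowest myotube caller score were 9 by depth and width and 28 by depth alone. These settings were also chosen after seeing the data and set 2 unlike measures side by side. No peak lies on unplaced sequence, so leaving it out changed nothing. The planned count of CACGTG in promoters was not run. Depth limits all of these, since a kinase promoter peak holds 12 to 26 tags. No paired analysis was possible because each group has 1 library.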
